A study of Mus musculus with 32 samples.

Results

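The genes described here encode the ionotropic glutamate receptors that dominate excitatory transmission in the mouse cerebral cortex. They are 10 of the 55401 genes in the table of counts, taken by symbol: the 4 AMPA receptor subunits Gria1, Gria2, Gria3 and Gria4, the 3 NMDA receptor subunits Grin1, Grin2a and Grin2b, and the 3 transmembrane AMPA receptor regulatory proteins (TARPs) Cacng2, Cacng3 and Cacng8. RNA depleted of ribosomal RNA was sequenced from cortices of mice aged 6 weeks in 3 genotypes. There were 10 Ts65Dn;Df(17)2 libraries, 5 labelled female and 5 male, 10 Dp(16)1/Df(16)8 libraries, 5 of each sex, and 12 euploid +/+ libraries, 6 of each sex. As background, Ts65Dn is a Down syndrome model in which distal chromosome 16, fused to a piece of proximal chromosome 17, is present as a small separate chromosome. In Dp(16)1 the extra copy of distal chromosome 16 is a tandem duplication in place. Df(17)2 and Df(16)8 are deletions that each cross adds on top of the gain. None of the 10 genes lies on the added segment, and Grin2a, though on chromosome 16, lies far from it in the proximal part. 

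AMPA receptors are tetramers of GluA subunits that carry the fast component of the excitatory synaptic current, and their calcium permeability depends on whether the Gria2 product, GluA2, is present. NMDA receptors combine the obligatory Grin1 product with GluN2 subunits and act as coincidence detectors of glutamate release and depolarisation, with the Grin2b product prominent early in postnatal life and the Grin2a product gaining share as cortex matures. TARPs bind AMPA receptors, take them to the synapse and slow their gating.

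A stretch of 45 coding bases around the channel's pore loop is shown for 6 of the pore-forming subunits, because the codon in capitals sets calcium permeability and because the stretch shows how close the AMPA genes are to each other in sequence. The letters are from the GRCm38 genome and the GENCODE M21 annotation, 5′ to 3′ on the coding strand. The capitals mark the codon of the glutamine/arginine site in AMPA subunits and of the corresponding asparagine site in NMDA subunits.
Gria1: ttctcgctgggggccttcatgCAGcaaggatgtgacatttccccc
Gria2: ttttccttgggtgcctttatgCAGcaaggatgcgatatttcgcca
Gria3: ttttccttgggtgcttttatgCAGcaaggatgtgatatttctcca
Gria4: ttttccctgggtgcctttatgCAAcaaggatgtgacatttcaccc
Grin1: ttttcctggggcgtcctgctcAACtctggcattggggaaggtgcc
Grin2a: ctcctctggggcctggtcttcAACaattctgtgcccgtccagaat

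The 4 AMPA genes all encode glutamine at this codon in the genome, and the NMDA genes shown encode asparagine. In Gria2 transcripts the codon is recoded to arginine by the RNA editing enzyme ADAR2, the product of Adarb1, which makes the channel nearly impermeable to calcium. Gene counts do not show how much of the RNA was edited. The Gria2 and Gria3 stretches matched at 42 of 45 bases, Gria1 and Gria2 at 36 of 45, and Grin1 and Grin2a at 18 of 45. Over whole exonic sequence, the longest run of identical bases was 59 between Gria3 and Gria4, 56 between Gria2 and Gria3 and 55 between Gria2 and Gria4. Long runs were not confined to the AMPA genes. They reached 43 between Gria2 and Grin2b and 39 between Gria3 and Cacng2, against 35 between Gria1 and Gria3. Reads that fall inside such a run cannot be assigned to 1 of these genes with certainty, and how the authors' counting treated them is not given in the sources used here.

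The printed stretch lies at chr11:57243073-57243117 (plus strand, exon 11 of 16) in Gria1, at chr3:80706890-80706934 (minus strand, exon 11 of 16) in Gria2, at chrX:41610244-41610288 (plus strand, exon 11 of 16) in Gria3 and at chr9:4464116-4464160 (minus strand, exon 12 of 17) in Gria4. In Grin1 it crosses from exon 14 into exon 15 of 21 within chr2:25297292-25297409 (minus strand), and in Grin2a it lies at chr16:9653540-9653584 (minus strand, exon 8 of 12). The whole genes occupy chr11:57011387-57330244 (Gria1), chr3:80681450-80802835 (Gria2), chrX:41400854-41678601 (Gria3), chr9:4417896-4796234 (Gria4), chr2:25291181-25319187 (Grin1), chr16:9567898-9995560 (Grin2a), chr6:135713233-136173511 (Grin2b), chr15:77991748-78120028 (Cacng2), chr7:122670492-122769393 (Cacng3) and chr7:3390683-3415648 (Cacng8). An antisense gene, Grin1os, covers 13.5% of the exonic bases of Grin1, and another, A730060N03Rik, covers 5.86% of those of Cacng2. Because no strand setting of the counting is given, reads of these pairs cannot be told apart.

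Library totals ran between 5795479 and 11189548 counts, and none of the 10 genes had fewer than 97 counts in any library, with the smallest counts in Cacng8. Dp(16)1/Df(16)8 replicate 2, labelled female, had 202 CPM (counts relative to the total of the library) of 4 Y-linked genes and 1.53 CPM of Xist, against at most 0.352 CPM and at least 1291 CPM in the other 15 libraries labelled female. It was kept under its label. A further 4 libraries stood at the low end of the first principal component of 2000 other genes, which held 40.4% of their variance: Dp(16)1/Df(16)8 replicate 1 and +/+ replicates 1, 4 and 5, all labelled female. They were picked out after the data had been seen, and are called the low-component libraries below. Among all tested genes, 961 (5.99%) had ranges that did not overlap between these 4 and the other 28 libraries, and among the 10 genes 3 did so: Gria1, Grin2a and Cacng2.

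Per kilobase of exon, Grin2b and Gria1 had the highest levels of the 10 genes and Cacng8 the lowest. The length used was that of all annotated exons of a gene, merged: 6.043 kb for Gria1, 15.548 kb for Gria2 and 24.842 kb for Grin2b. It can differ from the length of the transcripts present, and the order between genes depends on it. In CPM, Gria2 (801 to 1024) lay above Gria1 (339.7 to 710.1) in every library. Gria1, the subunit added to synapses in several forms of plasticity, averaged 100.1 ± 9.21 CPM per kb in Ts65Dn;Df(17)2, 90.1 ± 11.2 CPM per kb in Dp(16)1/Df(16)8 and 79.5 ± 14.5 CPM per kb in +/+ (SD, n = 10, 10 and 12). Grin2b averaged 79.0 ± 9.59 CPM per kb in Ts65Dn;Df(17)2, 82.2 ± 11.6 CPM per kb in Dp(16)1/Df(16)8 and 85.9 ± 9.42 CPM per kb in +/+. Gria1 exceeded Grin2b in 10 of 10 Ts65Dn;Df(17)2 libraries and 7 of 10 Dp(16)1/Df(16)8 libraries, whereas Grin2b exceeded Gria1 in 8 of 12 +/+ libraries. Of those 8, 3 were low-component libraries. Without the 4 low-component libraries Grin2b exceeded Gria1 in 5 of 9 +/+ libraries and Gria1 had the higher +/+ mean, at 87.2 ± 4.98 CPM per kb against 85.7 ± 10.7 CPM per kb for Grin2b, so the order in +/+ turned. In each genotype the ranges of these 2 genes overlapped.

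Below them, Gria2 averaged 60.6 ± 4.25 CPM per kb in Ts65Dn;Df(17)2, 61.2 ± 3.24 CPM per kb in Dp(16)1/Df(16)8 and 59.8 ± 2.13 CPM per kb in +/+, and its range did not overlap that of the next gene, Grin1, in any genotype. Grin1 averaged 41.7 CPM per kb in Ts65Dn;Df(17)2, 42.5 CPM per kb in Dp(16)1/Df(16)8 and 45.9 CPM per kb in +/+. Gria3, Grin2a and Cacng3 had overlapping ranges in every genotype, with +/+ means of 37.8, 37.3 and 34.6 CPM per kb. Gria4 followed at 24.2 CPM per kb in Ts65Dn;Df(17)2, 24.4 CPM per kb in Dp(16)1/Df(16)8 and 26.1 CPM per kb in +/+. Cacng2 averaged 12.2 CPM per kb in Ts65Dn;Df(17)2, 13.8 CPM per kb in Dp(16)1/Df(16)8 and 14.8 CPM per kb in +/+. Cacng8 averaged 8.38 CPM per kb in Ts65Dn;Df(17)2, 8.13 CPM per kb in Dp(16)1/Df(16)8 and 8.36 CPM per kb in +/+, with no overlap between the ranges of these 2 TARPs within a genotype.

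**Figure D1:**
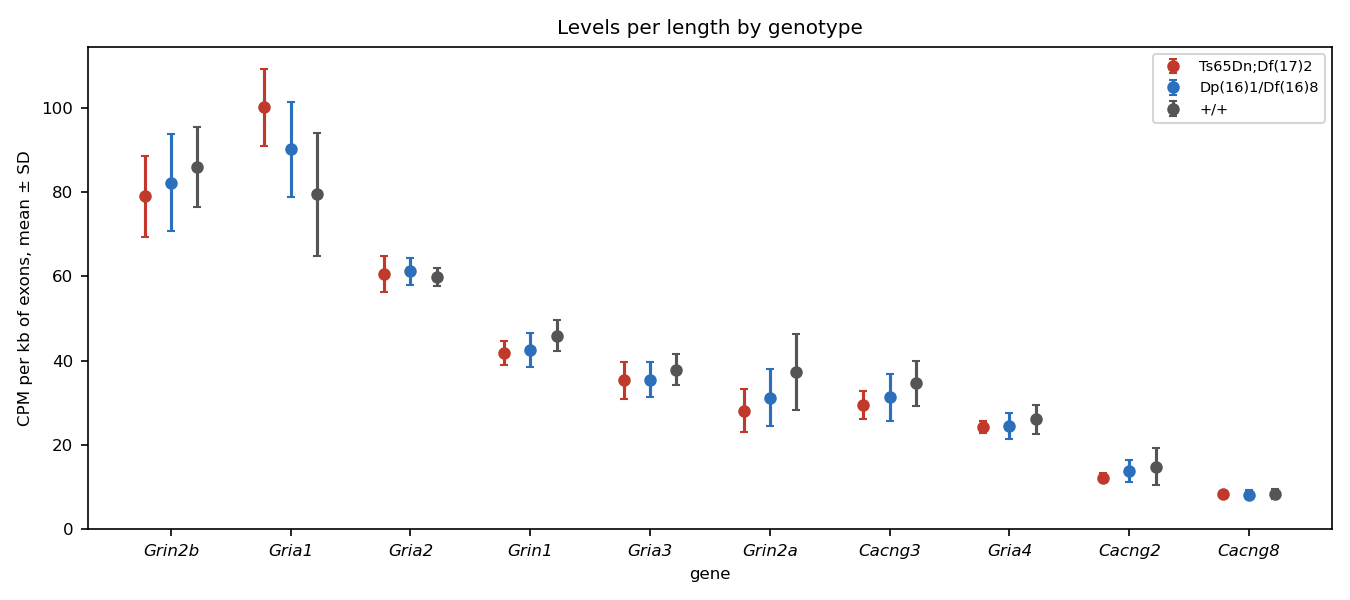
Mean level of each gene in CPM per kilobase of exon (points, with bars of 1 SD) in Ts65Dn;Df(17)2 (red, n = 10), Dp(16)1/Df(16)8 (blue, n = 10) and +/+ (grey, n = 12), genes ordered by their +/+ mean. Gria1 leads in both aneuploid genotypes, at 100.1 and 90.1 CPM per kb, and Grin2b leads in +/+ at 85.9, though not without the 3 low-component +/+ libraries, where Gria1 averages 87.2 and Grin2b 85.7. The order between genes depends on the merged exon lengths used.

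Gria1 was higher in Ts65Dn;Df(17)2 cortex than in +/+ cortex, and of the 10 genes only Gria1 passed the test, beside 3.97% of all tested genes. Its lowest, median and highest levels were 527, 594 and 710.1 CPM in Ts65Dn;Df(17)2, 365, 559 and 603 CPM in Dp(16)1/Df(16)8, and 339.7, 511 and 577 CPM in +/+. Of the Ts65Dn;Df(17)2 libraries, 7 of 10 lay above the highest +/+ library and all 10 lay above the +/+ mean, although the ranges overlapped. The fold change against +/+ was 1.26 (95% interval 1.12 to 1.43), or 0.34 on the log2 scale (SE 0.0863), with an adjusted p of 0.0265 (the quasi-likelihood test of edgeR, adjusted over 16042 genes by the method of Benjamini and Hochberg). In Dp(16)1/Df(16)8, 3 of 10 libraries lay above the highest +/+ library and the log2 difference from +/+ was 0.19 (SE 0.0865, adjusted p 0.367), which did not pass. In bulk tissue, fewer or more cells of a type and less or more RNA per cell cannot be told apart.

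The difference was smaller without the 4 libraries at the low end of the first component. Their Gria1 levels were 339.7 to 365 CPM, against 474 to 710.1 CPM in the other 28 libraries, with no overlap. Without them the Ts65Dn;Df(17)2 difference from +/+ was 0.19 on the log2 scale (SE 0.0479, a fold of 1.14), with an adjusted p of 0.0392 among 16037 genes, and the Dp(16)1/Df(16)8 difference was 0.10 (SE 0.0489, adjusted p 0.452). Leaving out 1 library at a time gave adjusted p values of 0.0119 to 0.0553 for the first of these differences. The call was lost without +/+ replicate 4 (0.0509), +/+ replicate 5 (0.0512), Ts65Dn;Df(17)2 replicate 2 (0.0526) or 4 (0.0553), with log2 differences of 0.30, 0.30, 0.33 and 0.30. Without Dp(16)1/Df(16)8 replicate 2 it was kept, with an adjusted p of 0.0292.

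The sample labels carry numbers that fall into 6 runs, and no label says what a run means. In the run from 32333 to 32359 Gria1 averaged 578 CPM in 3 Ts65Dn;Df(17)2 libraries, 573 CPM in 3 Dp(16)1/Df(16)8 libraries and 504 CPM in 5 +/+ libraries. In the run from 32368 to 32373 it averaged 612 CPM in 5 Ts65Dn;Df(17)2 libraries and 513 CPM in 1 +/+ library. The mean log2 differences from +/+ within these runs were 0.22 and 0.25, and no other run held both of these genotypes. The first of these runs holds +/+ replicate 1, a low-component library. Without it the other 4 +/+ libraries of the run averaged 545 CPM and the difference was 0.08. With the runs as terms in the fit the difference was 0.19 with an adjusted p of 0.587.

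Gria2, whose product makes the channel impermeable to calcium, was the most even of the genes: its highest level was 1.28 times its lowest over the 32 libraries. Its lowest, median and highest levels were 801, 942 and 1016 CPM in Ts65Dn;Df(17)2, 851, 953 and 1024 CPM in Dp(16)1/Df(16)8, and 848, 936 and 979 CPM in +/+. The ranges overlapped, with 4 of 10 libraries of each aneuploid genotype above the highest +/+ library. The log2 difference was 0.02 (SE 0.0371, adjusted p 0.828) for Ts65Dn;Df(17)2 and 0.03 (SE 0.0371, adjusted p 0.747) for Dp(16)1/Df(16)8 against +/+, and the 95% interval of the Ts65Dn;Df(17)2 fold was 0.961 to 1.07.

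Gria3, an X-linked subunit, had lowest, median and highest levels of 281, 344 and 414 CPM in Ts65Dn;Df(17)2, 278, 356 and 398 CPM in Dp(16)1/Df(16)8, and 284, 376 and 435 CPM in +/+. The genotypes overlapped and neither difference from +/+ passed, at -0.10 (SE 0.0686, adjusted p 0.424) for Ts65Dn;Df(17)2 and -0.09 (SE 0.0686, adjusted p 0.59) for Dp(16)1/Df(16)8. Gria4, which in adult cortex is prominent in parvalbumin interneurons, had 141, 156 and 164 CPM in Ts65Dn;Df(17)2, 132, 149 and 180.0 CPM in Dp(16)1/Df(16)8, and 131, 169.5 and 193 CPM in +/+. All 10 Ts65Dn;Df(17)2 libraries lay below the +/+ mean of 165 CPM but within the +/+ range. The log2 differences of Gria4 were -0.11 (SE 0.0682, adjusted p 0.366) and -0.10 (SE 0.0682, adjusted p 0.565) for Ts65Dn;Df(17)2 and Dp(16)1/Df(16)8 against +/+.

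**Figure D2:**
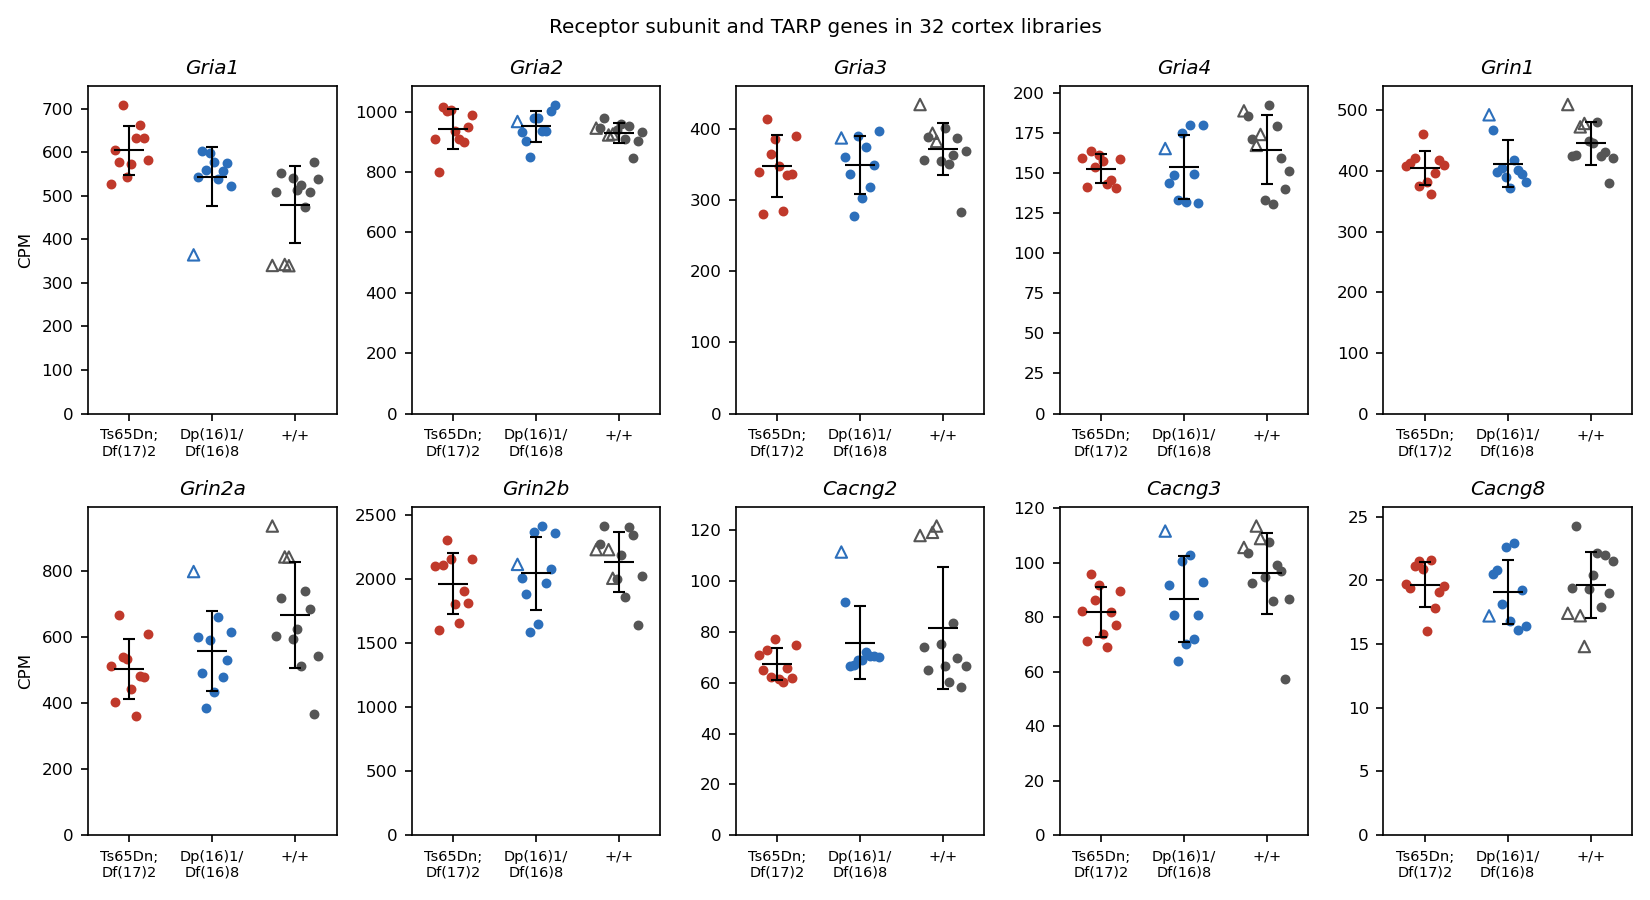
Level in CPM (y axes from 0) of the 10 genes in every library, 1 point per library, in Ts65Dn;Df(17)2 (red), Dp(16)1/Df(16)8 (blue) and +/+ (grey), with the mean and 1 SD in black. Open triangles are the 4 libraries at the low end of the first principal component, which are lowest for Gria1 (339.7 to 365 CPM) and highest for Grin2a (799 to 938 CPM) and Cacng2 (112 to 122 CPM).

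Grin1, the subunit that every NMDA receptor contains, had lowest, median and highest levels of 362, 409 and 460.3 CPM in Ts65Dn;Df(17)2, 372, 400.2 and 492.8 CPM in Dp(16)1/Df(16)8, and 381, 439 and 509.7 CPM in +/+. Ranges overlapped, with 9 of 10 Ts65Dn;Df(17)2 libraries and 8 of 10 Dp(16)1/Df(16)8 libraries below the +/+ mean. The log2 difference was -0.14 (SE 0.0453, adjusted p 0.0728) for Ts65Dn;Df(17)2 and -0.11 (SE 0.0453, adjusted p 0.296) for Dp(16)1/Df(16)8 against +/+, and neither passed. Of the 32 fits that left out 1 library, the first of these differences passed in 2. These were without +/+ replicate 11 (adjusted p 0.0287) and without Dp(16)1/Df(16)8 replicate 1 (adjusted p 0.0455). Without +/+ replicate 11, 1486 of all tested genes were called, against 637 in the main fit. Without the 4 low-component libraries the Ts65Dn;Df(17)2 difference of Grin1 was -0.11 (SE 0.0438, adjusted p 0.237).

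Grin2a, the GluN2 subunit that gains share as cortex matures, varied most between libraries, its highest level being 2.60 times its lowest. It had 361, 499 and 668 CPM as lowest, median and highest levels in Ts65Dn;Df(17)2, 384, 560.3 and 799 CPM in Dp(16)1/Df(16)8, and 367, 656 and 938 CPM in +/+. The ranges overlapped widely, and 9 of 10 libraries of each aneuploid genotype lay below the +/+ mean of 668 CPM. The log2 difference was -0.40 (SE 0.123, a fold of 0.758, 95% interval 0.637 to 0.902) for Ts65Dn;Df(17)2 against +/+, with an adjusted p of 0.0584, which missed the threshold. For Dp(16)1/Df(16)8 it was -0.25 (SE 0.123, adjusted p 0.399).

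The Grin2a difference moved across the threshold with the choice of libraries. It passed without +/+ replicate 6 (adjusted p 0.0409), 8 (0.0478) or 11 (0.0137), without Ts65Dn;Df(17)2 replicate 10 (0.0365), and without Dp(16)1/Df(16)8 replicate 1 (0.0427) or 4 (0.0415). DESeq2 gave an adjusted p of 0.0293. Without the 4 libraries at the low end of the first component, where Grin2a was at 799 to 938 CPM against 361 to 741 CPM in the other 28, the log2 difference was -0.27 with an adjusted p of 0.283.

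Grin2b, the GluN2 subunit prominent early in postnatal life, had lowest, median and highest levels of 1599, 2004 and 2307 CPM in Ts65Dn;Df(17)2, 1588, 2042 and 2414 CPM in Dp(16)1/Df(16)8, and 1642, 2208 and 2411 CPM in +/+. The genotypes overlapped, and the log2 differences from +/+ were -0.12 (SE 0.0762, adjusted p 0.357) for Ts65Dn;Df(17)2 and -0.06 (SE 0.0762, adjusted p 0.765) for Dp(16)1/Df(16)8. The ratio of Grin2a to Grin2b per kilobase, a figure that increases with postnatal age in rodent cortex, averaged 0.355 ± 0.0379 for Ts65Dn;Df(17)2, 0.378 ± 0.0560 for Dp(16)1/Df(16)8 and 0.431 ± 0.0863 for +/+ (SD). Without the low-component libraries it averaged 0.362 for Dp(16)1/Df(16)8 and 0.387 for +/+. It ran from 0.524 to 0.583 in the 4 low-component libraries and from 0.302 to 0.439 in the other 28.

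Cacng2 encodes stargazin, the TARP whose loss causes the stargazer phenotype in mice. Its lowest, median and highest levels were 60.5, 65.4 and 77.3 CPM in Ts65Dn;Df(17)2, 66.6, 70.3 and 112 CPM in Dp(16)1/Df(16)8, and 58.2, 71.9 and 122 CPM in +/+. The top of the Dp(16)1/Df(16)8 and +/+ ranges came from the 4 low-component libraries, at 112 to 122 CPM against 58.2 to 91.8 CPM in the other 28. The log2 difference for Ts65Dn;Df(17)2 against +/+ was -0.26 (SE 0.106, adjusted p 0.143) with all libraries and -0.05 (SE 0.0650, adjusted p 0.748) without those 4. For Dp(16)1/Df(16)8 it was -0.09 (SE 0.106, adjusted p 0.747) with all libraries and 0.05 (SE 0.0663, adjusted p 0.815) without them.

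Cacng3, which encodes the TARP gamma-3, had lowest, median and highest levels of 69.0, 82.1 and 95.8 CPM in Ts65Dn;Df(17)2, 63.9, 86.3 and 112 CPM in Dp(16)1/Df(16)8, and 57.4, 98.0 and 113 CPM in +/+. All 10 Ts65Dn;Df(17)2 libraries lay below the +/+ mean of 96.1 CPM and none below the lowest +/+ library, replicate 11. The log2 difference was -0.23 (SE 0.0896, adjusted p 0.128) for Ts65Dn;Df(17)2 and -0.14 (SE 0.0896, adjusted p 0.508) for Dp(16)1/Df(16)8. Of the 32 fits that left out 1 library, the first of these passed in 1, without +/+ replicate 11 (adjusted p 0.0241). In that fit 1486 of all tested genes were called, against 637 in the main fit. Without the 4 low-component libraries the Ts65Dn;Df(17)2 difference of Cacng3 was -0.18 (SE 0.0961, adjusted p 0.370). Cacng8, the TARP gamma-8 that is most abundant in hippocampus, had medians of 19.6 CPM in Ts65Dn;Df(17)2, 18.7 CPM in Dp(16)1/Df(16)8 and 19.3 CPM in +/+. Its ranges of 16.0 to 21.6 CPM in Ts65Dn;Df(17)2 and 16.1 to 22.9 CPM in Dp(16)1/Df(16)8 lay inside the 14.8 to 24.3 CPM of +/+, and its log2 differences from +/+ were 0.00 (SE 0.0757, adjusted p 0.987) and -0.04 (SE 0.0762, adjusted p 0.869).

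**Figure D3:**
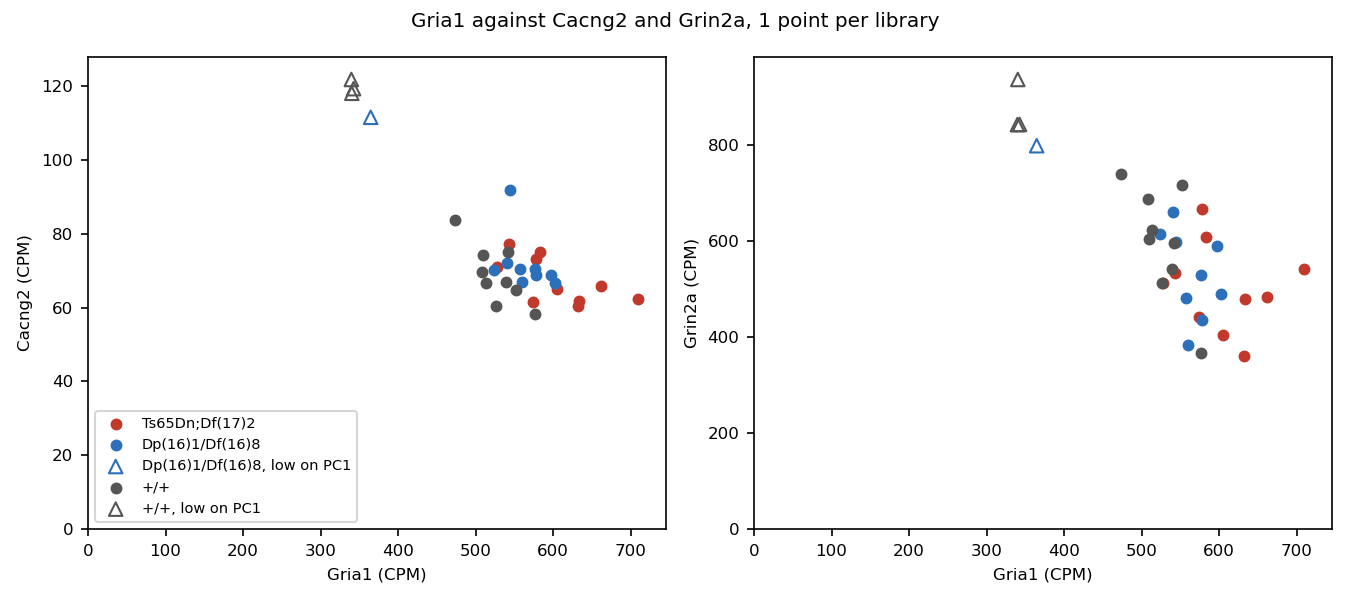
Gria1 (x axis, CPM) against Cacng2 (left) and Grin2a (right, CPM), 1 point per library, both axes from 0, in Ts65Dn;Df(17)2 (red), Dp(16)1/Df(16)8 (blue) and +/+ (grey). The open triangles, 1 Dp(16)1/Df(16)8 and 3 +/+ libraries, form a corner of low Gria1 (339.7 to 365 CPM) and high Cacng2 (112 to 122 CPM) that no other library enters.

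Against +/+, 1 of the 10 genes was called higher and 0 lower in Ts65Dn;Df(17)2 at an adjusted p under 0.05, beside 3.97% of all tested genes called in either direction, 1.75% higher and 2.22% lower. No gene of the 10 had ranges that did not overlap between genotypes, beside 0.337% of all genes for Ts65Dn;Df(17)2 and 0.249% for Dp(16)1/Df(16)8 against +/+, and 0.0374% between the aneuploid genotypes. At an unadjusted p under 0.05 there were 5 of 10, beside 21.8% of all genes. The median log2 difference of the 10 genes was -0.12, with 3 above and 7 below 0, beside 0.0047 over all 16042 genes. In Dp(16)1/Df(16)8 against +/+, edgeR's quasi-likelihood test called 0 of the 10 genes, and DESeq2 and limma voom called 0 as well, beside 0.573% of all genes called. At an unadjusted p under 0.05 there were 2 of 10, Grin1 and Gria1, beside 12.8% of all genes, and with 1 library left out 1 to 4 of the 10. The median log2 difference was -0.09. Both aneuploid genotypes were set against the same +/+ libraries, so their differences are not independent of each other.

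The aneuploid genotypes were also compared with each other. By edgeR's quasi-likelihood test 0 of the 10 genes were called in Ts65Dn;Df(17)2 against Dp(16)1/Df(16)8, also at an unadjusted p under 0.05 and also by DESeq2 and limma voom at the adjusted threshold, beside 0.0499% of all genes called and 4.1% at the unadjusted threshold. Gria1 had the highest difference, 0.15 on the log2 scale (SE 0.0903, fold 1.11, 95% interval 0.978 to 1.26). Cacng2 had the lowest, -0.17 (SE 0.110, fold 0.890, 95% interval 0.762 to 1.04), and Grin2a differed by -0.15 (SE 0.128, fold 0.899, 95% interval 0.750 to 1.08). The Gria2 fold of 0.990 had the narrowest interval, 0.937 to 1.05. The difference between 0.34 and 0.19, the Gria1 values of the 2 genotypes against +/+, was therefore not resolved. Without the 4 low-component libraries the Gria1 difference between the aneuploid genotypes was 0.10 (SE 0.0475). By the same test its unadjusted p was then 0.0496, the only one of the 10 under 0.05, and none passed the adjusted threshold.

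**Figure D4:**
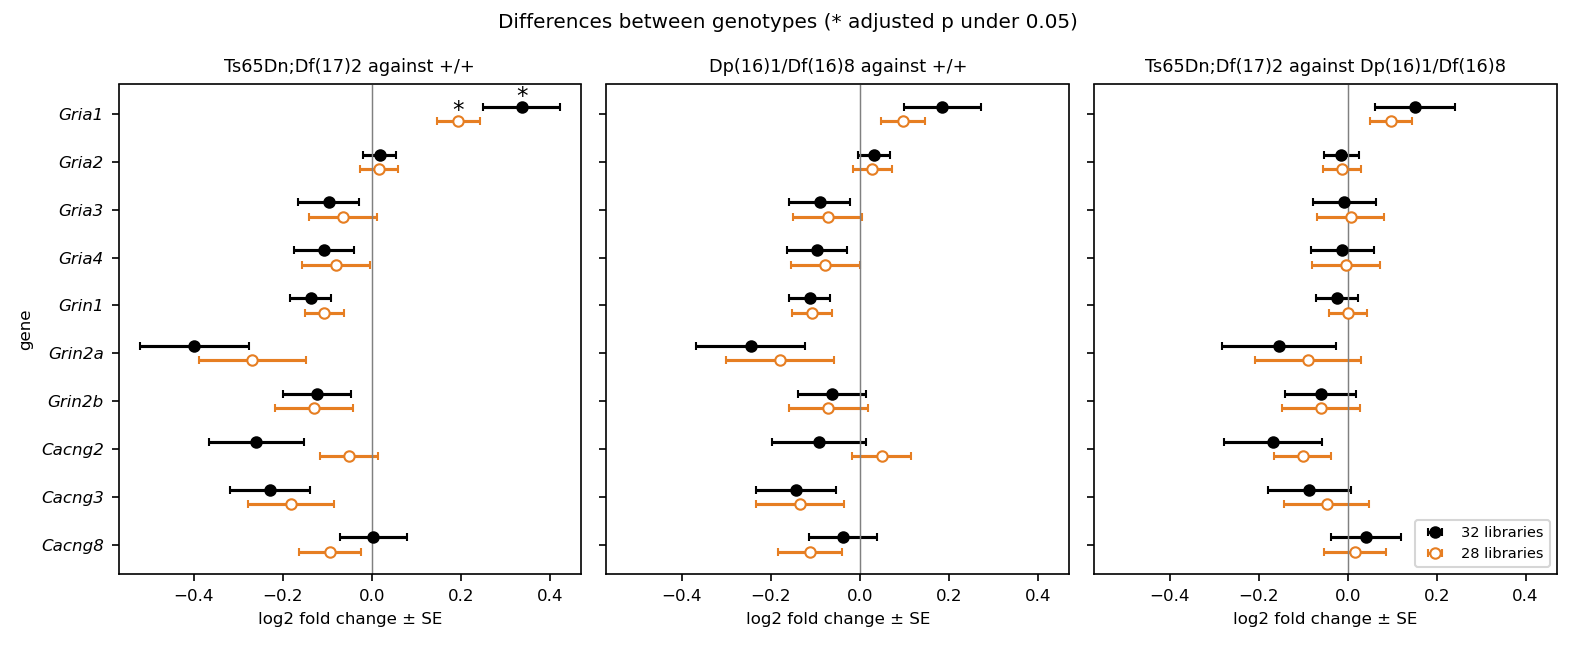
Log2 fold change with its standard error for each gene in Ts65Dn;Df(17)2 against +/+, Dp(16)1/Df(16)8 against +/+ and Ts65Dn;Df(17)2 against Dp(16)1/Df(16)8, with all 32 libraries (filled) and without the 4 low-component libraries (open). Asterisks mark adjusted p under 0.05, which only Gria1 in Ts65Dn;Df(17)2 against +/+ reached, at 0.34 and 0.19.

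Gria1 also took a larger mean share of the AMPA subunit RNA in the aneuploid genotypes. Per kilobase, Gria1 made up 45.4 ± 3.32% of the 4 AMPA subunits for Ts65Dn;Df(17)2, 42.6 ± 4.37% for Dp(16)1/Df(16)8 and 38.9 ± 5.54% for +/+ (SD). The share of Gria2 was 27.5 ± 1.29% for Ts65Dn;Df(17)2, 29.02 ± 1.77% for Dp(16)1/Df(16)8 and 29.5 ± 1.84% for +/+, and the ratio of Gria1 to Gria2 averaged 1.66 for Ts65Dn;Df(17)2, 1.48 for Dp(16)1/Df(16)8 and 1.33 for +/+. In the 4 low-component libraries this ratio was 0.926 to 0.970, against 1.28 to 1.94 in the other 28. The AMPA subunits summed to 220.2 ± 11.8 CPM per kb in Ts65Dn;Df(17)2, 211 ± 11.8 CPM per kb in Dp(16)1/Df(16)8 and 203 ± 12.4 CPM per kb in +/+. The 3 NMDA subunits summed to 149 ± 15.3 CPM per kb in Ts65Dn;Df(17)2, 156 ± 18.8 CPM per kb in Dp(16)1/Df(16)8 and 169 ± 18.5 CPM per kb in +/+. The 3 TARPs summed to 50.1 ± 4.53 CPM per kb in Ts65Dn;Df(17)2, 53.1 ± 7.91 CPM per kb in Dp(16)1/Df(16)8 and 57.8 ± 8.25 CPM per kb in +/+. Cacng8 made up 9.33 to 11.1% of the 3 TARPs in the 4 low-component libraries and 13.1 to 20.6% in the other 28. The ratio of the AMPA sum to Grin1 was 3.64 to 3.75 in the 4 low-component libraries and 4.08 to 6.29 in the other 28. Without the 4 libraries the Gria1 share averaged 43.8% for Dp(16)1/Df(16)8 and 41.7% for +/+, and the ratio of Gria1 to Gria2 averaged 1.53 and 1.46. The AMPA sum was then 214 CPM per kb in Dp(16)1/Df(16)8 and 209 CPM per kb in +/+, the NMDA sum 153 and 164 CPM per kb, and the TARP sum 51.5 and 54.3 CPM per kb. These sums, shares and ratios are descriptions and were not tested. Their size depends on the merged exon lengths used, and in CPM Gria2 lay above Gria1 in every library.

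No genotype effect on these genes differed detectably between the sexes as labelled. Dp(16)1/Df(16)8 replicate 2, whose Y-linked and Xist levels were within those of the male libraries, was coded female in the fits below. No interaction fit was made without it. The interaction of genotype and sex called 0 of 16042 genes for either aneuploid genotype by edgeR's quasi-likelihood test, with 787 and 804 genes at an unadjusted p under 0.05 for Ts65Dn;Df(17)2 and Dp(16)1/Df(16)8, and limma voom called 0 of the 10 genes. The smallest unadjusted p among the 10 genes was 0.0634, for Cacng2 in Ts65Dn;Df(17)2. Gria1 averaged 617 ± 37.3 CPM in male and 593 ± 72.2 CPM in female Ts65Dn;Df(17)2 libraries (n = 5 each), and 523 ± 34.5 CPM in male and 438 ± 107 CPM in female +/+ libraries (n = 6 each). The female +/+ group includes 3 of the 4 low-component libraries, and its other 3 averaged 534 ± 22.7 CPM. Without the 4 libraries the interaction also called 0 of 16037 genes, with 510 and 575 at an unadjusted p under 0.05, and the smallest unadjusted p among the 10 genes was 0.109. Between males and females over all genotypes 12 genes, 0.0748% of those tested, were called and none of the 10 was among them, the smallest adjusted p being 0.42, for Cacng2. Without the 4 libraries, all of them female, 12 genes were again called and none of the 10, and the smallest unadjusted p was 0.0707, for Cacng8.

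Marker genes of neighbouring regions and of other cell types were read beside the receptor genes. The counts below stand beside 1.75% of all tested genes called higher and 2.22% called lower in Ts65Dn;Df(17)2 against +/+. For Dp(16)1/Df(16)8 0.573% were called in either direction. At an unadjusted p under 0.05 by the same test the shares were 21.8% and 12.8%. All 14 striatal neuron markers were detected and had positive log2 differences in both aneuploid genotypes against +/+, though by edgeR's quasi-likelihood test none passed at the adjusted threshold, and 1 did in Ts65Dn;Df(17)2 and 0 in Dp(16)1/Df(16)8 at an unadjusted p under 0.05. Their summed level ran from 902 to 3361 CPM in Ts65Dn;Df(17)2, 373 to 3682 CPM in Dp(16)1/Df(16)8 and 273 to 3782 CPM in +/+, and Sh3rf2, at 0 in +/+ tissue at its lowest, was the only striatal marker at 0 anywhere. Of 20 cortical excitatory neuron markers 7 fell in Ts65Dn;Df(17)2, among them Fezf2 (log2 difference -1.08, adjusted p 0.0473). None rose, though 5 of the 20 had positive values, the median log2 difference was -0.49 and the highest was 0.65. Their summed level ran from 1576 to 2442 CPM in Ts65Dn;Df(17)2, 1533 to 2928 CPM in Dp(16)1/Df(16)8 and 1555 to 2911 CPM in +/+. Of 20 interneuron markers 3 rose in Ts65Dn;Df(17)2, with summed levels of 1790 to 2191 CPM in Ts65Dn;Df(17)2, 1230 to 2145 CPM in Dp(16)1/Df(16)8 and 1182 to 1983 CPM in +/+. None of these 20 fell, though 7 had negative values in Ts65Dn;Df(17)2, the lowest -0.67, and the median log2 difference was 0.28. Of 10 astrocyte markers 3 fell in the same comparison, among them Clu (log2 difference -0.22, adjusted p 0.00119) and Aldoc (-0.18, adjusted p 0.00805), and Clu also fell in Dp(16)1/Df(16)8 (-0.18, adjusted p 0.0232). In Ts65Dn;Df(17)2 5 of these 10 had positive values, with a median log2 difference of -0.07 and a highest of 0.19, and none passed as a rise. In Ts65Dn;Df(17)2 against +/+ 1 of 8 oligodendrocyte precursor, 1 of 10 microglia and 1 of 8 meningeal markers rose, and 1 of 8 thalamic markers fell. Values were positive for 6 of the 8 oligodendrocyte precursor, 6 of the 10 microglia, 8 of the 8 meningeal and 5 of the 8 thalamic markers. The thalamic median log2 difference was 0.19. In the same comparison none of 10 oligodendrocyte, 10 endothelial and mural and 10 pan-neuronal genes passed edgeR's test, with 0, 2 and 6 at an unadjusted p under 0.05. Of 12 hippocampal markers 8 were high enough to test and Spink8, Iyd, Lct and Tdo2 were too low. None of the 8 passed by edgeR's quasi-likelihood test in either aneuploid genotype, with 3 and 1 at an unadjusted p under 0.05. At that unadjusted threshold, in either direction, Ts65Dn;Df(17)2 had 17 of 20 cortical excitatory, 14 of 20 interneuron and 6 of 10 astrocyte markers. It also had 3 of 8 oligodendrocyte precursor, 1 of 10 microglia, 3 of 8 meningeal and 2 of 8 thalamic markers. In Dp(16)1/Df(16)8 these counts were 4, 7, 6, 1, 1, 0 and 0, with 5 of 10 endothelial and mural markers.

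Marker genes could be among the 2000 genes of the first component, and its sign was set by the striatal markers, so the values here are a description. The 4 low-component libraries did not overlap the other 28 in summed cortical excitatory, interneuron or pan-neuronal markers, or in summed Grin2c, Grin2d and Grin3a. Their summed pan-neuronal genes were 8466 to 8903 CPM against 6547 to 8292 CPM in the other 28. Grin2c, Grin2d and Grin3a summed to 96.7 to 111 CPM in the 4 against 122 to 188 CPM. Their summed cortical excitatory markers were 2853 to 2928 CPM against 1533 to 2800 CPM in the other 28, and their summed interneuron markers were 1182 to 1230 CPM against 1446 to 2191 CPM. Their summed striatal markers, 273 to 724 CPM, lay at the low end of the 373 to 3782 CPM of the other 28. Their summed oligodendrocyte markers, 4954 to 6135 CPM, lay at the high end of the 1645 to 5792 CPM of the other 28, and their summed astrocyte markers were 7359 to 7897 CPM against 5892 to 7698 CPM. With the mean log2 CPM of the striatal markers as a term in the fit, the Gria1 difference between Ts65Dn;Df(17)2 and +/+ was 0.24 with an adjusted p of 0.181. With that of the cortical excitatory markers as a term it was 0.19 with an adjusted p of 0.423. Mean striatal scores were 6.52 in Ts65Dn;Df(17)2 and 5.29 in +/+, and mean cortical excitatory scores 5.52 and 5.85. Because the scores differ with genotype, these fits cannot tell genotype and tissue composition apart. The part of composition in the Gria1 difference was not tested.

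Striatal scores, the mean log2 CPM of those markers, fell into separate stretches with a gap between them. Above the gap, at 6.09 to 7.31, lay 20 libraries, of which 9 were Ts65Dn;Df(17)2, 6 were Dp(16)1/Df(16)8 and 5 were +/+, and below it, at 2.87 to 5.27, lay 12, of which 1 was Ts65Dn;Df(17)2, 4 were Dp(16)1/Df(16)8 and 7 were +/+. Among the 20 libraries above the gap Gria1 averaged 593 ± 44.1 CPM in Ts65Dn;Df(17)2, 569.8 ± 20.3 CPM in Dp(16)1/Df(16)8 and 539 ± 25.1 CPM in +/+. Grin2a averaged 499.5 ± 96.2 CPM in Ts65Dn;Df(17)2, 487 ± 74.5 CPM in Dp(16)1/Df(16)8 and 524 ± 96.0 CPM in +/+ among them, and Cacng2 averaged 67.8 ± 6.34 CPM in Ts65Dn;Df(17)2, 72.5 ± 9.58 CPM in Dp(16)1/Df(16)8 and 67.0 ± 7.76 CPM in +/+. Below the gap +/+ Grin2a averaged 771 ± 108 CPM and +/+ Gria1 439 ± 94.2 CPM. All 4 low-component libraries lay below the gap, among them +/+ replicates 1, 4 and 5. These +/+ replicates had 339.7 to 343 CPM of Gria1 and 843 to 938 CPM of Grin2a. The other +/+ libraries there, replicates 3, 7, 9 and 10, had 474 to 553 CPM of Gria1 and 624 to 741 CPM of Grin2a.

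Because of the gap, correlations with the striatal score were taken within each stretch. Genotypes and sexes were pooled in the correlations and permutations, with no adjustment for either. Of 30 relations of the 10 genes with the striatal score above the gap, below it and with the hippocampal score over all 32 libraries, 1 passed a permutation test with adjustment over the 30. It was Gria4 above the gap, with r = -0.68 (p = 0.00091, adjusted p = 0.0273) and rho = -0.64 (p = 0.00299, adjusted p = 0.0897) over 20 libraries. Without the 2 libraries farthest from the median score r was -0.66 with an adjusted p of 0.078. Below the gap the Gria4 correlation was 0.06 over 12 libraries. None of the 10 genes passed with the hippocampal score, with r between -0.25 and 0.42.

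**Figure D5:**
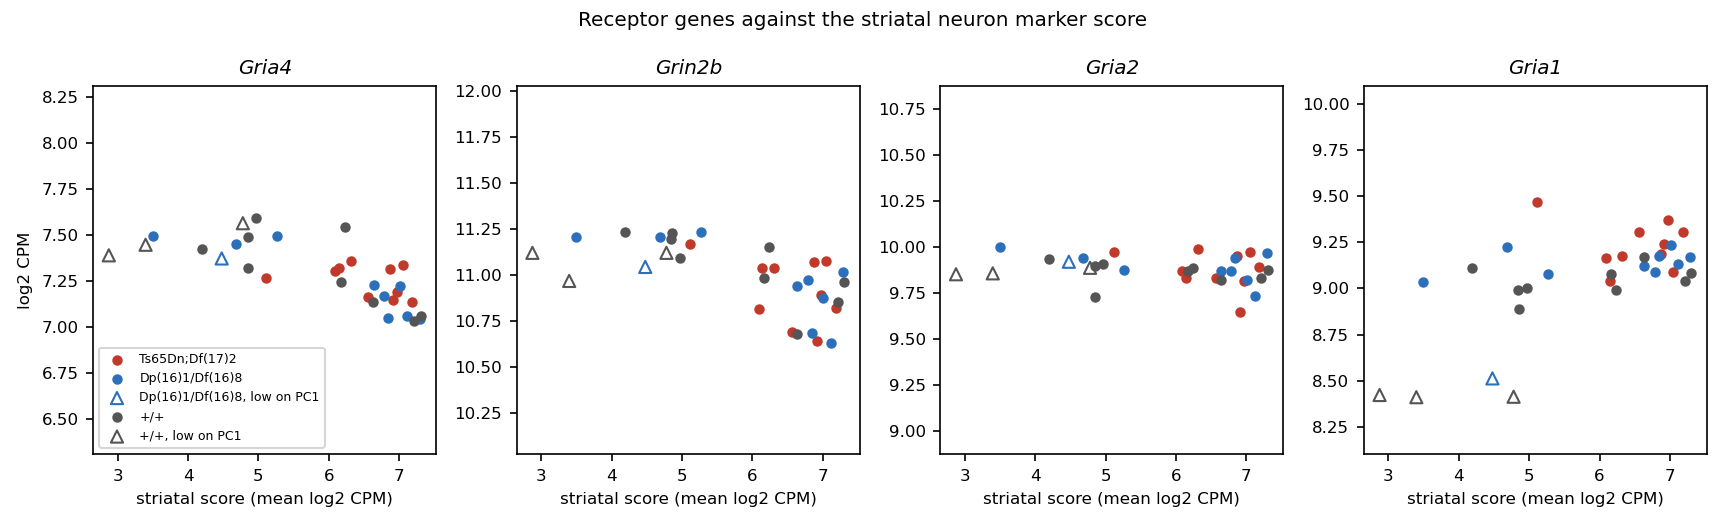
Level (log2 CPM) of Gria4, Grin2b, Gria2 and Gria1 against the striatal score (mean log2 CPM of 14 markers), 1 point per library, in Ts65Dn;Df(17)2 (red), Dp(16)1/Df(16)8 (blue) and +/+ (grey), with the 4 low-component libraries as open triangles. Scores leave a gap between 5.27 and 6.09, and 9 of 10 Ts65Dn;Df(17)2 but 5 of 12 +/+ libraries lie above it.

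Other genes of the glutamate receptor pathway were read out of the same fit. Against +/+, 1 of 20 other AMPA receptor auxiliary and assembly genes rose and 1 fell in Ts65Dn;Df(17)2, beside 1.75% and 2.22% of all tested genes. Cacng5, the TARP gamma-5, rose to 28.8 ± 6.97 CPM in Ts65Dn;Df(17)2, against 16.3 ± 8.92 CPM in +/+ (log2 difference 0.83, SE 0.247, adjusted p 0.0494), with ranges of 20.1 to 39.3 and 4.26 to 32.03 CPM that overlapped. Its call was lost in 24 of the 32 fits that left out 1 library, with adjusted p between 0.0160 and 0.0876. Olfm2, a secreted protein found with AMPA receptor complexes, fell to 49.4 ± 7.60 CPM in Ts65Dn;Df(17)2, against 71.9 ± 20.7 CPM in +/+ (log2 difference -0.52, SE 0.134, adjusted p 0.0266), a call lost in 5 of those 32 fits. The median log2 difference of the 20 genes was -0.01.

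Of 20 trafficking and anchoring genes 1 rose and 1 fell in Ts65Dn;Df(17)2, beside 1.75% and 2.22% of all tested genes. The median log2 difference of these 20 was -0.05. Grip1, a scaffold that binds the tail of GluA2 and GluA3, rose to 41.7 ± 4.10 CPM in Ts65Dn;Df(17)2, against 35.0 ± 4.43 CPM in +/+ (log2 difference 0.26, SE 0.0634, adjusted p 0.0217). Without the 4 low-component libraries none of Cacng5, Olfm2 and Grip1 passed, with adjusted p of 0.166, 0.134 and 0.139. In Dp(16)1/Df(16)8 against +/+ the log2 differences of Cacng5, Olfm2 and Grip1 were 0.46, -0.40 and 0.17, with adjusted p of 0.438, 0.203 and 0.269.

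Among the 3 RNA editing enzymes, Adarb2, which lacks known editing activity and marks a class of interneurons, rose to 40.6 ± 5.70 CPM in Ts65Dn;Df(17)2, against 29.5 ± 5.28 CPM in +/+ (log2 difference 0.46, SE 0.0968, adjusted p 0.00618). It is also 1 of the 3 interneuron markers that rose, and without the 4 low-component libraries its adjusted p was 0.0448. Adarb1, which encodes the enzyme that edits the Gria2 codon printed above, had 225 ± 23.6 CPM in Ts65Dn;Df(17)2, 216 ± 22.95 CPM in Dp(16)1/Df(16)8 and 227 ± 20.4 CPM in +/+, with log2 differences from +/+ of -0.01 (adjusted p 0.919) and -0.07 (adjusted p 0.619). Adar did not pass, with a log2 difference of -0.00 in Ts65Dn;Df(17)2. Of the 4 other NMDA receptor subunits Grin3b was too low to test, and Grin2c, Grin2d and Grin3a had log2 differences of -0.13, 0.29 and 0.32 in Ts65Dn;Df(17)2 against +/+, none of which passed. Grid1, which encodes a delta glutamate receptor, did not pass, with a log2 difference of 0.10. Fezf2, Grin2c, Grin2d, Grin3a, Grid1, Adar and Adarb1 were named after their values had been seen.

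For each receptor gene the genes whose levels followed it most closely were found from log2 CPM after the means of genotype and sex had been removed, with Pearson's r as the measure of likeness over 32 libraries. All points share the libraries and their depth, so these values are a description. Grin2a was most like Snap25, a core protein of vesicle fusion, at 0.96, and Unc13a and Tbr1 followed at 0.95 each, the last a transcription factor of deep-layer excitatory neurons. Grin2b was most like Sv2b, a synaptic vesicle protein, at 0.94, and Cacng3 was most like Arhgap32 at 0.96. These values changed little over the 28 libraries outside the low end of the first component, at 0.97 for Grin2a with Snap25, 0.96 for Grin2b with Sv2b and 0.95 for Cacng3 with Arhgap32. Gria3 was most like Mal2 at 0.93, Gria4 most like Basp1 at 0.89 and Grin1 most like Cdk5r2 at 0.91. Gria2 and Cacng8 had the least close neighbours, Slitrk4 at 0.77 and Pkig at 0.81.

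For Gria1 and Cacng2 the likeness leaned on the 4 low-component libraries. Gria1 was most like Myo5b, a motor protein of recycling endosomes, at 0.95 over 32 libraries and 0.81 over 28. Nkain3 followed at 0.94 and 0.77, and D430019H16Rik at 0.94 and 0.68. Cacng2 was most like Dusp3, at 0.91 over 32 libraries and 0.81 over 28, then Cdr1os at 0.90 and 0.80 and Atf6 at 0.90 and 0.72.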

How the data were processed

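The authors deposited raw counts per gene, whole numbers with no normalization, for 32 libraries, and all columns were used. Per the labels' protocols, libraries were made from total RNA after removal of ribosomal RNA. Per the submitters' processing notes, the tools were STAR 2.7.9a, Subread 1.6.4 with its featureCounts, and bcl2fastq 2.20, and the builds named are GRCm38.p6 and GRCh38. The strand setting and the annotation release are not given in the sources used here. Exon lengths, loci and sequences come from GENCODE M21 on GRCm38, in which 54349 of 55401 identifiers matched.

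From these counts, filterByExpr of edgeR 4.0.16 (R 4.3.3) kept 16042 genes, TMM scaled the libraries, and 1 quasi-likelihood fit took in all 32 libraries with genotype and sex as terms, with Benjamini-Hochberg adjustment over all genes and a threshold of 0.05. CPM are TMM-scaled, and 2 is the prior count behind log2 CPM. SE is the log2 fold change divided by the square root of F. Nothing in the labels says more of how animals were bred, so p-values measure the spread between these samples. Correlations used 100000 permutations, both directions. A pooled correlation with the striatal score over 32 libraries had been planned and is not given because the scores form separate stretches. Correlations within each genotype had also been planned and are not given. Alternatives were RLE scaling, no filter on low counts, DESeq2 1.42.0, limma voom (3.58.1), other terms and libraries left out. The cortical score term and the 28-library fit were chosen after seeing the data. The fit was tested on simulated data. All 10 genes were named in every comparison, with up to 4 genes past the threshold per other list and up to 3 most alike genes per receptor gene. The genes and lists were chosen with earlier results of these data known. Some genes and 1 sequence are not reported here.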

Additional observations from a re-analysis of the deposited data

Results flagged for a closer look

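Gria1 in Dp(16)1/Df(16)8 replicate 1 stood far below the other 9 libraries of its genotype, at 365 CPM against 524 CPM in the next lowest and 603 CPM in the highest. It was the only such library among 20 sets of values tested, the 10 genes in each of the 2 aneuploid genotypes, and chance alone gives about 1 in 20. The same library is 1 of the 4 at the low end of the first principal component, together with +/+ replicates 1, 4 and 5, whose Gria1 levels were 339.7 to 343 CPM. The cause was not tested.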

How the results depend on the processing

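The rise of Gria1 in Ts65Dn;Df(17)2 against +/+ passed under RLE scaling, without the filter on low counts, without sex, with the 2 genotypes alone, in DESeq2, in limma voom and without the 4 low-component libraries. It missed the threshold, so that 0 of the 10 genes were called higher, with the striatal score as a term, with the number runs as terms, without the 2 libraries numbered below 30000, and with the cortical excitatory score as a term. Its log2 difference was then 0.24, 0.19, 0.30 and 0.19. DESeq2 called 2 of the 10 genes lower, Grin1 and Grin2a, and the fit of 2 genotypes called 1, Grin2a. With 1 library left out, 0 to 1 of the 10 were called higher and 0 to 3 lower.

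The count of all genes called in Ts65Dn;Df(17)2 against +/+, 637, became 331 with no filter, 1069 in DESeq2, 153 with the striatal score, 72 with the number runs, 280 without the 2 libraries numbered below 30000, 105 with the cortical score and 166 without the 4 libraries, and 264 to 1486 with 1 library left out (264 without Ts65Dn;Df(17)2 replicate 2, 1486 without +/+ replicate 11). In Dp(16)1/Df(16)8 against +/+ it was 92, became 145 in DESeq2 and 229 with the number runs, and ran from 74 to 222 with 1 library left out (222 without Dp(16)1/Df(16)8 replicate 1). Between the aneuploid genotypes it was 8, and 5 with the number runs.

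Some log2 differences that had not passed changed sign. In Ts65Dn;Df(17)2 against +/+ Gria2 was -0.017 with the number runs and -0.011 without the 2 libraries numbered below 30000. With the cortical score Gria3 was 0.082, Gria4 0.042, Grin2b 0.059 and Cacng3 0.029, and with the striatal score Gria4 was 0.015. Cacng8 was -0.00089 under RLE scaling, -0.028 with the striatal score, -0.025 with the number runs, -0.024 without the 2 libraries, -0.011 with the cortical score, -0.095 without the 4 libraries and -0.032 to 0.034 with 1 library left out. In Dp(16)1/Df(16)8 against +/+ the cortical score gave 0.035 for Gria3, 0.0055 for Gria4, 0.060 for Grin2b, 0.056 for Cacng2 and 0.026 for Cacng3, and Cacng2 was 0.050 without the 4 libraries.

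Between the aneuploid genotypes Gria1 was -0.030 and Olfm2 0.18 with the number runs. With the striatal score Gria3 was 0.038, Gria4 0.050 and Olfm2 0.0057. With the cortical score Gria3 was 0.047, Gria4 0.036, Cacng3 0.0037 and Olfm2 0.0090. Without the 4 libraries Gria3 was 0.0070 and Grin1 0.00091. With 1 library left out Gria2 ran from -0.032 to 0.0098, Gria3 from -0.044 to 0.027, Gria4 from -0.037 to 0.020 and Grin1 from -0.043 to 0.00013. The Ts65Dn;Df(17)2 interaction with sex for Grin2b was 0.028 without the 2 libraries numbered below 30000. Without the 4 libraries that interaction was 0.088 for Gria1, -0.047 for Gria3, -0.024 for Gria4, -0.072 for Grin1, -0.022 for Grin2a, -0.026 for Cacng2 and -0.0048 for Cacng3. Without the 2 libraries farthest in the striatal score 0 of the 10 genes passed above the gap. The cause of these changes was not tested.

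No paired analysis was possible because the labels give the libraries no replicate numbers that genotypes share. The number runs hold few libraries of each genotype, and 2 Ts65Dn;Df(17)2 libraries share a run with no other genotype.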
